A study of Mus musculus with 12 samples.

Results

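The semaphorins, the plexins and neuropilins, the ephrins and Eph receptors, the Slits and Robos, and the netrins with their receptors Dcc and Unc5 were followed through 3 regions of the mouse hippocampus. They were found by their gene symbols in a table of unique molecular identifiers (UMIs, which count captured RNA molecules) of 32546 genes. The pattern matched 72 symbols, of which 2 are antisense RNAs of the plexin gene Plxna4 (Plxna4os1 and Plxna4os2) and were left out. The 70 members are protein-coding genes. They comprise 20 semaphorins, 11 plexins and neuropilins, 8 ephrins, 14 Eph receptors, 7 Slits and Robos, and 10 netrins and netrin receptors.

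The data came from photo-isolation chemistry (PIC), in which reverse transcription primers bound in a tissue section carry a light-sensitive cage and only irradiated cells yield cDNA. CA1, CA3 and the dentate gyrus (DG) of male ICR mice at 8 weeks of age were irradiated in 4 replicates for each of 4 histological conditions, which gave 48 replicates in 12 libraries. Fresh-frozen tissue was permeabilized either for 5 min in 0.1 N HCl (HCl sections) or for 1 h in TE at 70 °C (TE sections), and tissue fixed with 4% PFA was cut frozen (fixed frozen sections) or from paraffin (paraffin sections) and permeabilized with TE. In the paper's protocol all sections, also fresh-frozen ones, are first treated briefly with 4% PFA on the slide. Its HCl step also includes Triton X-100 and heated PBS. Every animal was of the same strain, sex and age. The 4 replicates of a region and condition shared 1 library, so that within a condition region and library cannot be told apart. The p-values within a condition measure the spread between replicates whose mice are not stated. A lower level in a region may come from fewer cells of a type or from less RNA per cell, which these sections cannot separate.

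Axon guidance molecules steer growing axons by attraction and repulsion and keep acting on synapses, dendrites and cell contacts in the adult brain. Secreted Slits bind Robo receptors, netrins bind Dcc and the Unc5 receptors, and semaphorins bind plexins, with the neuropilins as co-receptors for the secreted class. Ephrins are tethered to the membrane of one cell and bind Eph receptor tyrosine kinases on another. In the hippocampus, CA1 and CA3 hold pyramidal neurons and the DG holds granule neurons whose mossy fibres run to CA3.

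The totals ranged from 127253 to 933756 UMIs per replicate in HCl sections and from 294445 to 1111804 in TE sections. They ranged from 52800 to 307145 in fixed frozen sections and from 35932 to 223055 in paraffin sections. Marker genes of CA1 (5 of 5 higher in CA1 than in either other region over the 12 libraries) and of the DG (7 of 7 higher in the DG than in CA1) followed the region names, and so did those of CA3 (5 of 5 higher in CA3 than in CA1). All 9 oligodendrocyte markers were higher in CA1 and in CA3 than in the DG, with median log2 fold changes of 1.502 and 1.18. Choroid plexus markers summed to 13253 CPM in 1 paraffin DG replicate and to at most 5032 CPM elsewhere.

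The members together gave 117003 of the 18317781 UMIs. Their summed level had medians of 7288, 6624, 4257 and 4360 CPM (UMIs scaled by the total of a replicate) over the 12 replicates of HCl, TE, fixed frozen and paraffin sections, respectively. CPM of this 3′ method count molecules and are not divided by gene length. The Eph receptors gave 53484 of the UMIs, the plexins and neuropilins 24111, the semaphorins 18114, the Slits and Robos 10865, the netrins and their receptors 7035 and the ephrins 3394. The receptor Epha4 had the highest mean over the 48 replicates with 1040 CPM, followed by Epha7 with 663, Plxna4 with 451, Epha5 with 385, Sema5a with 276 and Robo2 with 192. The tail was long, and Epha1, Epha2, Ntn5, Ntng2 and Sema3f had 4, 8, 8, 5 and 8 UMIs, respectively, in all replicates together and could not be tested over libraries. The reads were assigned without a stated strand, so that a gene and an overlapping one on the other strand cannot be told apart. This concerned Unc5a, Sema4c, Efna3, Efna4, Epha10, Ephb4, Plxna4, Epha1, Plxna1, Ephb1, Plxnb1, Epha6, Unc5c and Ntn5, while Nrp1, Sema4a, Ntng2 and Plxnc1 shared exon bases with a gene on their own strand.

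To ask which members differed between the regions whatever the histological condition, the replicates of each library were summed and the 12 libraries were compared with condition as a covariate. In these fits the spread was estimated almost wholly from all genes together. The p-values and SEs over the libraries thus carry little of a gene's own spread between libraries. Of 65 members tested, 31 passed an adjusted p of 0.05 for at least 1 pair of regions, 34 for none, and 4 (Slit2, Ntng1, Sema5a and Unc5c) for all 3 pairs. CA1 was higher than the DG for 11 members and lower for 11, beside 4.64% and 5.52% of all genes tested. CA3 was higher than the DG for 13 and lower for 7, beside 3.88% and 4.3% of all genes. CA1 was higher than CA3 for 2 and lower for 11, beside 2.05% and 2.61% of all genes. The members were counted more deeply than most genes tested, with a median of 666 UMIs against 210, and the part of depth in these shares was not tested. Of the 55 calls, 28 in 16 members were kept under each of 17 alternatives, 12 of which left out 1 library. The count for CA3 against the DG fell from 20 to 10 without the HCl CA3 library, 9 without HCl DG, 10 without TE CA3, 11 without TE DG and 13 without fixed frozen DG.

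**Figure D1:**
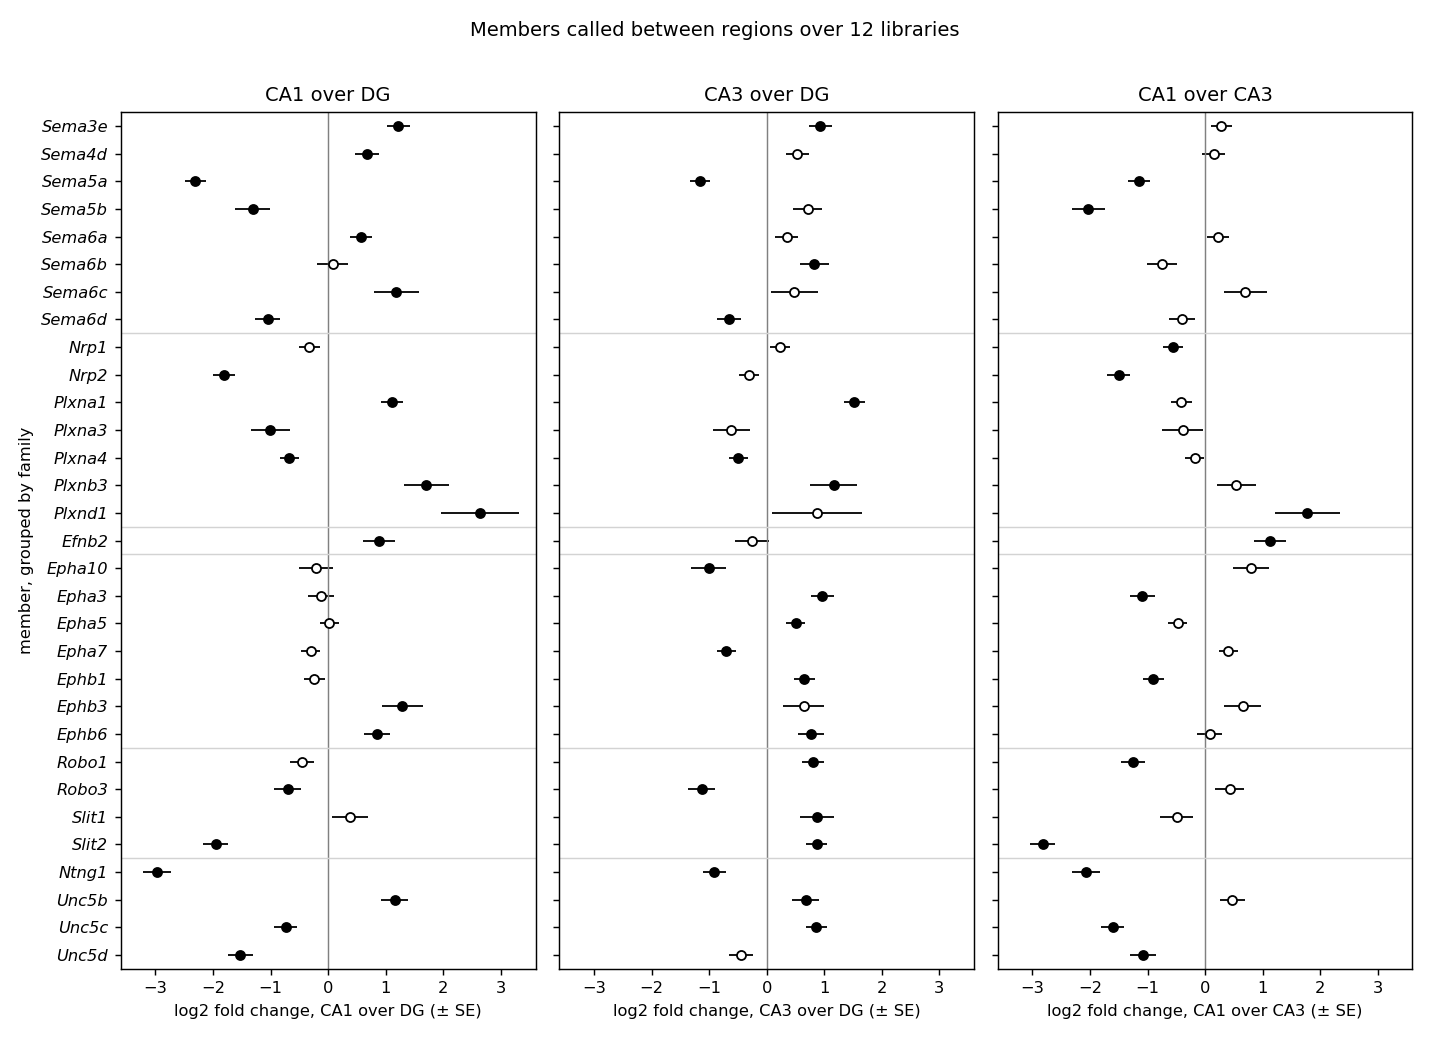
Log2 fold changes over the 12 libraries for the 31 members called for at least 1 pair of regions, with bars of ± 1 SE; the horizontal axis is the log2 fold change of the first region over the second, and filled points passed an adjusted p of 0.05 (edgeR). Slit2 lies at -2.82 for CA1 over CA3, and Ntng1 at -2.98 for CA1 over DG.

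Among the secreted ligands, Slit2 had the lowest ratio of CA1 to CA3 of the members called for this pair. In HCl sections it was at 41.04, 52.5, 36.8 and 39.3 CPM in the 4 CA1 replicates, at 273, 233, 278 and 241 CPM in CA3 and at 142, 146, 164 and 105 CPM in the DG. The order CA3, DG, CA1 held for the means of all 4 conditions, and the replicates of the 3 regions did not overlap in HCl or TE sections. In TE sections the replicates were at 27.6, 40.7, 45.9 and 18.9 CPM in CA1, 245, 209, 283 and 266 CPM in CA3 and 130.1, 141, 158 and 109 CPM in the DG. Over the libraries the log2 fold change, given throughout ± its SE, was -2.82 ± 0.21 with an edgeR adjusted p of 5.9e-36 for CA1 over CA3, -1.96 ± 0.22 for CA1 over DG and 0.87 ± 0.18 for CA3 over DG. Slit2 was also called lower in CA1 than in CA3 in each condition on its own. In paraffin CA1 it was at 21.3, 0, 28.3 and 0 CPM, a few UMIs in all, and the call against CA3 was kept in 7 of 8 fits with 1 replicate left out (log2 fold changes -3.72 to -2.54), with CA1 replicate 2 as the exception. In fixed frozen sections, the call of CA1 against the DG was kept in 3 of 8 fits with 1 replicate left out (log2 fold changes -2.38 to -1.29) and was lost without CA1 replicate 2, 3 or 4 or DG replicate 3 or 4. Slit1, a second Slit, was much less abundant. Its difference between CA3 and the DG (0.87 ± 0.29 with an edgeR adjusted p of 0.0398) held in 8 of the 17 alternatives, and was lost without the fixed frozen CA3, fixed frozen DG, HCl CA3, HCl DG, TE CA3, TE DG or paraffin CA3 library (0.80 to 0.99) and with DESeq2 (0.88) and with no filter on low counts (0.90). Slit3 was not called for any pair.

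Netrin-G1 (Ntng1), a netrin relative that is anchored in the membrane and does not act through Dcc, was highest in the DG and, like Slit2, lowest in CA1. In TE sections it was at 5.74, 10.5, 25.7 and 10.8 CPM in CA1, 42.7, 69.3, 57.9 and 48.9 CPM in CA3 and 116, 141, 75.5 and 132 CPM in the DG. The 3 regions did not overlap there, and CA1 lay below the DG without overlap in all 4 conditions. The log2 fold change of CA1 over the DG was -2.98 ± 0.24 with an edgeR adjusted p of 1.43e-32 over the libraries and -2.45 ± 0.63 with an edgeR adjusted p of 0.00643 in paraffin sections alone. In those, CA1 was at 0, 35.996, 28.3 and 0 CPM and the DG at 122, 88.9, 112 and 93.4 CPM. CA3 lay between, with log2 fold changes of -0.91 ± 0.20 against the DG and -2.07 ± 0.24 for CA1 over CA3. Of the secreted netrins, Ntn1 and Ntn4 were not called for any pair.

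Sema5a, a transmembrane semaphorin and the most abundant ligand of the set, followed the same order as Ntng1. In HCl sections it was at 115, 73.8, 114 and 78.6 CPM in CA1, 227, 253, 244 and 144 CPM in CA3 and 363, 559.9, 514 and 423 CPM in the DG. In paraffin sections it was at 128, 89.99, 127 and 111 CPM, 174, 332, 376 and 200.5 CPM and 271, 329, 444 and 467 CPM in the same regions. CA1 and the DG were apart in all 4 conditions, whereas CA3 and the DG overlapped in paraffin sections. The difference of CA1 from the DG was -2.31 ± 0.18 with an edgeR adjusted p of 7.74e-33 over the libraries and was called in each condition. The other pairs gave -1.16 ± 0.17 for CA3 over DG and -1.15 ± 0.19 for CA1 over CA3. Its paralog Sema5b instead shared the order of Slit2, with 27.4, 16.4, 20.7 and 23.6 CPM in CA1, 83.6, 55.7, 72.8 and 88.9 CPM in CA3 and 73.8, 43.4, 41.9 and 50.2 CPM in the DG of HCl sections. CA1 stood below both other regions without overlap in those sections, and over the libraries the log2 fold change of CA1 over CA3 was -2.03 ± 0.29 with an edgeR adjusted p of 2.76e-10. In paraffin CA1 Sema5b had 0 UMIs, which allows up to 3. Against those 3, scaled by the totals, CA3 with 14 UMIs was 3.17-fold higher and the DG with 18 UMIs 2.29-fold higher. These ratios allow for no error in the 14 and 18 UMIs, and neither difference was called.

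Sema3e, a secreted semaphorin that binds plexin D1, was higher in both pyramidal regions than in the DG. In TE sections it was at 90.7, 104, 68.9 and 94.4 CPM in CA1, 91.4, 70.2, 90.1 and 104 CPM in CA3 and 32.5, 23.9, 48.7 and 10.2 CPM in the DG. CA1 and CA3 overlapped with each other and not with the DG, in TE as in HCl sections. Over the libraries the log2 fold change over the DG was 1.22 ± 0.20 with an edgeR adjusted p of 1.12e-07 in CA1 and 0.93 ± 0.20 with an edgeR adjusted p of 0.000158 in CA3. The picture differed in fixed frozen sections, where CA1 reached 333, 127, 162 and 351 CPM while CA3 was at 81.5, 77.6, 125 and 133 CPM and the DG at 112, 48.8, 144 and 101 CPM. There Sema3e was called higher in CA1 than in CA3 (1.06 ± 0.32 with an edgeR adjusted p of 0.0177). The call was kept in 4 of 8 fits with 1 replicate left out (log2 fold changes 0.82 to 1.36) and lost without CA1 replicate 1 or 4 or CA3 replicate 1 or 2. The test of whether its region differences changed between conditions was not passed after adjustment.

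Of the class 6 semaphorins, which are transmembrane ligands of class A plexins, Sema6d was lower in CA1 than in the DG. In TE sections it was at 27.6, 34.65, 37.8 and 40.5 CPM in CA1, 48.6, 61.2, 58.97 and 70.3 CPM in CA3 and 79.3, 112, 98.98 and 143 CPM in the DG. Its regions were apart there, and its log2 fold change of CA1 over the DG was -1.05 ± 0.22 with an edgeR adjusted p of 4.25e-05 over the libraries. CA1 over CA3 was not called over the libraries (-0.40 ± 0.22). CA3 over the DG was called (-0.65 ± 0.20 with an edgeR adjusted p of 0.0213) and held in 9 of the 17 alternatives. Paraffin sections gave the other sign without a call, with 213, 108, 56.5 and 83.5 CPM in CA1 and 108, 17.8, 62.8 and 46.7 CPM in the DG. Sema6a, Sema6c and Sema4d were called higher in CA1 than in the DG (0.57 ± 0.20, 1.18 ± 0.39 and 0.68 ± 0.21), and Sema6b higher in CA3 than in the DG (0.83 ± 0.25). Each of these 4 calls was lost in some fits with 1 library left out. Such fits also have fewer libraries to test with, and the cause of the losses was not tested. Sema6a held in 8 of the 17 alternatives, and was lost without the fixed frozen CA1, fixed frozen DG, HCl CA1, HCl CA3, HCl DG, TE CA3 or TE DG library (0.43 to 0.57) and with DESeq2 (0.59) and with no filter on low counts (0.57). Sema6c held in 10 of the 17 alternatives, and was lost without the fixed frozen CA1, fixed frozen DG, HCl CA1, HCl DG or paraffin DG library (0.87 to 1.44) and with DESeq2 (1.33) and without all paraffin libraries (1.04). Sema4d held in 14 of the 17 alternatives, and was lost without the fixed frozen CA1 (0.39) or fixed frozen DG (0.52) library and with DESeq2 (0.77). Sema6b held in 12 of the 17 alternatives, and was lost without the HCl CA3, HCl DG, TE CA3, TE DG or paraffin CA3 library (0.70 to 0.93). In total 4 of 19 semaphorins tested were called higher in CA1 than in the DG and 3 lower, beside 4.64% and 5.52% of all genes. Of the 4, 3 are the calls of Sema6a, Sema6c and Sema4d, which did not hold in all alternatives.

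Of 8 ephrins tested over the libraries, 1 was called between CA1 and the DG, none between CA3 and the DG and 1 between CA1 and CA3, beside 10.2%, 8.18% and 4.67% of all genes in either direction. Both calls were of Efnb2, a transmembrane ephrin. In TE sections it was at 57.4, 42.2, 56.7 and 59.4 CPM in CA1, 16.2, 17.99, 34.3 and 5.86 CPM in CA3 and 16.3, 13.6, 26.8 and 30.6 CPM in the DG. CA1 was above both without overlap in TE sections, with a log2 fold change over the DG of 1.38 ± 0.28 with an edgeR adjusted p of 0.000631. Over the libraries the call against the DG (0.88 ± 0.28 with an edgeR adjusted p of 0.0199) held in 13 of the 17 alternatives, and was lost without the fixed frozen CA1 (0.78), TE CA1 (0.58) or TE DG (0.63) library and with DESeq2 (0.86). The call against CA3 (1.13 ± 0.28 with an edgeR adjusted p of 0.00174) held in 15 of the 17. It was lost without the TE CA1 (0.81) or TE CA3 (1.08) library. In fixed frozen sections alone Efna5 was called lower in CA1 than in the DG (-2.61 ± 0.88 with an edgeR adjusted p of 0.0383), a call kept in 1 of 8 fits with 1 replicate left out (log2 fold changes -3.06 to -2.34) and lost when any CA1 or DG replicate other than DG replicate 3 was left out.

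**Figure D2:**
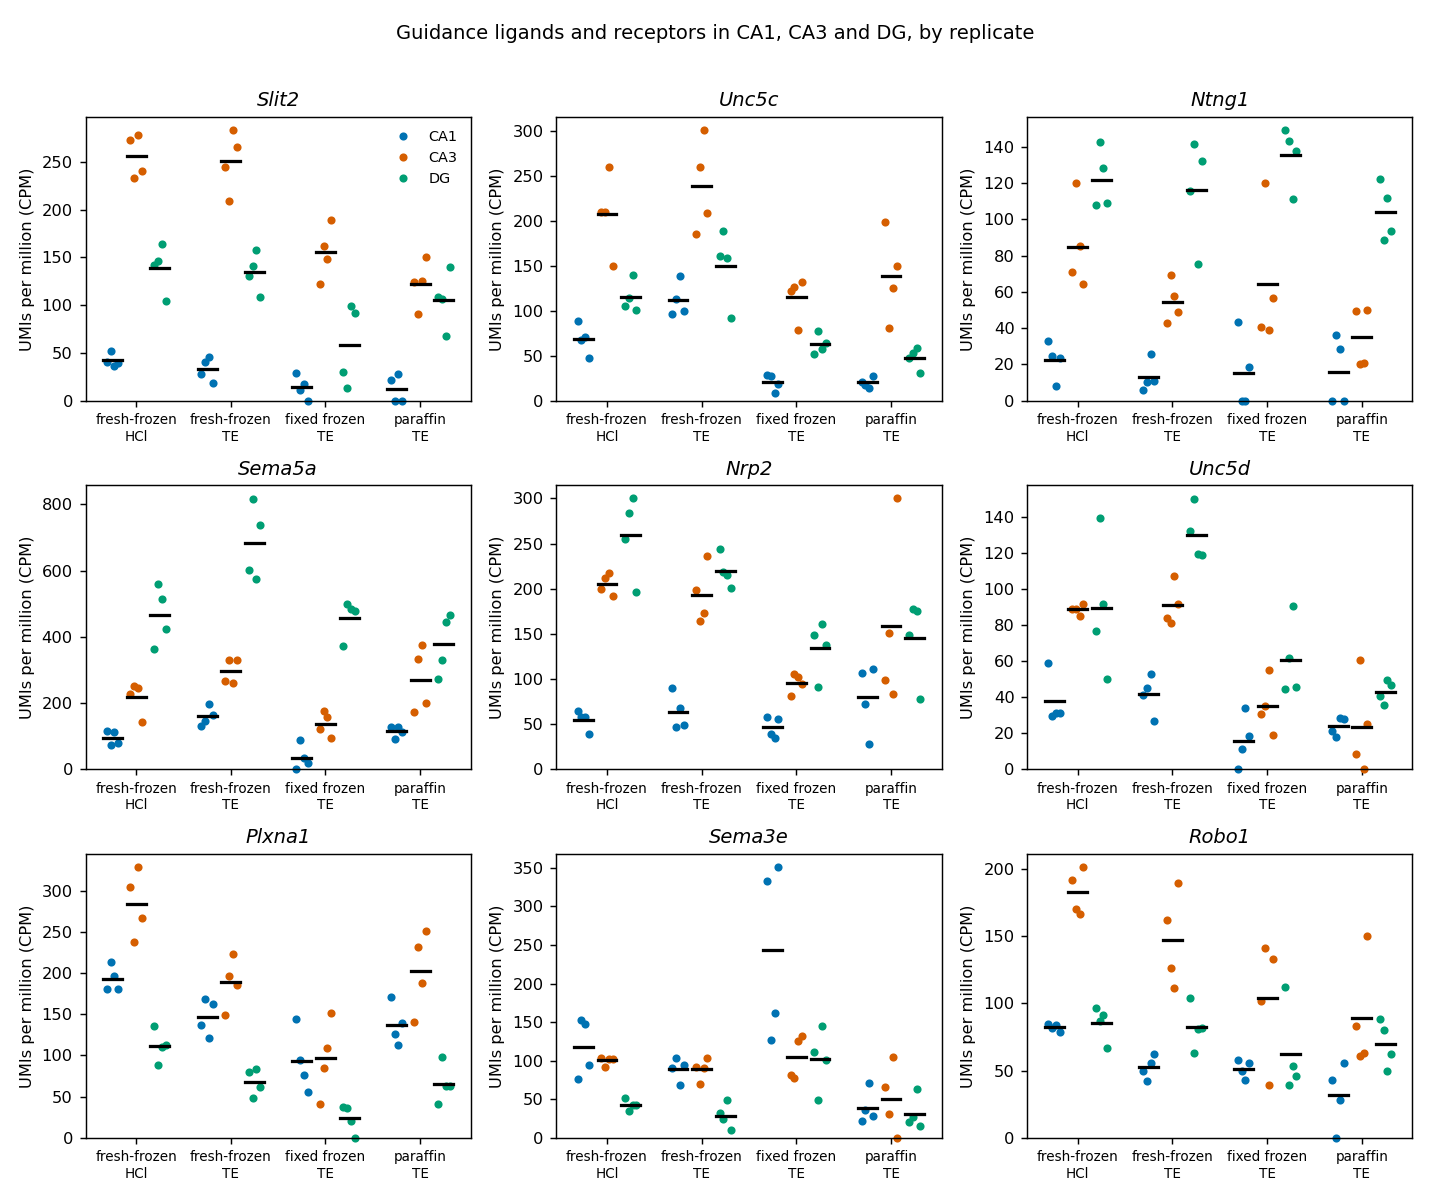
Level (CPM) of 9 members in the 48 replicates, by condition and region; each dot is 1 replicate and the black line is the mean of 4. Slit2 and Unc5c are highest in CA3, Ntng1 and Sema5a in the DG, and Plxna1 and Sema3e are lowest in the DG of fresh-frozen sections.

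Turning to the receptors, Robo1, a receptor of Slits, had the same order of regions as its ligand Slit2. In HCl sections it was at 84.8, 81.97, 83.97 and 78.6 CPM in CA1, 192, 170.3, 167 and 201 CPM in CA3 and 96.5, 86.9, 91.4 and 66.98 CPM in the DG. CA3 was above the other regions without overlap in HCl and TE sections. The log2 fold change of CA1 over CA3 was -1.25 ± 0.20 with an edgeR adjusted p of 5.59e-08, and that of CA3 over the DG 0.80 ± 0.19 with an edgeR adjusted p of 0.00087, which held in 16 of the 17 alternatives, and was lost without the HCl DG (0.65) library. Robo2, the most abundant Robo, was not called for any pair over the libraries, with 256, 297, 259 and 237 CPM in CA1, 243, 253, 299 and 293 CPM in CA3 and 229.7, 264, 245 and 180.0 CPM in the DG of TE sections. These values overlapped in each pair of regions. Robo3, the divergent member of the family, was lower in CA3 than in the DG, with a log2 fold change over the libraries of -1.13 ± 0.24 with an edgeR adjusted p of 7.03e-05. In TE sections it was at 13.3, 13.5, 16.1 and 5.86 CPM in CA3 against 46.8, 22.1, 35.2 and 30.6 CPM in the DG, without overlap, while in fixed frozen sections the values were 30.6, 14.1, 7.83 and 75.8 CPM and 29.8, 26.05, 28.9 and 27.5 CPM, on few UMIs and overlapping. CA1 over CA3 was not called (0.42 ± 0.25), and the call of CA1 over the DG (-0.70 ± 0.24 with an edgeR adjusted p of 0.0321) held in 8 of the 17 alternatives, and was lost without the HCl CA1, HCl CA3, HCl DG, TE CA1, TE CA3, TE DG or paraffin DG library (-0.70 to -0.53) and with DESeq2 (-0.66) and with no filter on low counts (-0.70).

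Among the Unc5 family, repulsive netrin receptors that also bind Flrt proteins, 3 members differed between regions and each in its own way. Unc5c was highest in CA3, with 88.9, 67.2, 71.3 and 47.1 CPM in CA1, 210.1, 209.9, 260.5 and 150.4 CPM in CA3 and 105, 115, 139.6 and 100.5 CPM in the DG of HCl sections. Its CA1 and CA3 replicates did not overlap in any of the 4 conditions, and the pair was called in each. Over the libraries the log2 fold changes were -1.60 ± 0.20 with an edgeR adjusted p of 1.72e-13 for CA1 over CA3, 0.86 ± 0.18 for CA3 over DG and -0.74 ± 0.20 for CA1 over DG. In paraffin sections CA1 was at 21.3, 18.00, 14.1 and 27.8 CPM and CA3 at 199, 80.6, 125 and 150.4 CPM, and the call was kept in 7 of 8 fits with 1 replicate left out (log2 fold changes -2.97 to -2.36), with CA3 replicate 1 as the exception. Unc5d was low in CA1, at 41.3, 45.2, 52.7 and 26.98 CPM in CA1, 84.01, 80.95, 107 and 91.8 CPM in CA3 and 132, 149.9, 119 and 119 CPM in the DG of TE sections. The 3 regions were apart in these sections, and CA1 over DG gave -1.52 ± 0.23 with an edgeR adjusted p of 1.18e-09. Unc5b had the reverse profile, with 161, 63.9, 93.2 and 134 CPM in CA1, 69.7, 63.2, 60.5 and 58.8 CPM in CA3 and 39.7, 38.8, 38.1 and 25.1 CPM in the DG of HCl sections. Its log2 fold change of CA1 over the DG was 1.15 ± 0.23 with an edgeR adjusted p of 2.96e-05. Neither Dcc, the attractive netrin receptor, nor Unc5a was called for any pair over the libraries. In HCl sections alone Dcc was called lower in CA1 than in CA3 (-1.71 ± 0.50 with an edgeR adjusted p of 0.0251), a call kept in 4 of 8 fits with 1 replicate left out (log2 fold changes -1.95 to -1.28) and lost without CA1 replicate 1, 2 or 3 or CA3 replicate 3 and with DESeq2.

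Neuropilin-2 (Nrp2), a co-receptor of secreted semaphorins, was low in CA1. In HCl sections it was at 64.3, 57.4, 57.5 and 39.3 CPM in CA1, 199, 212, 217 and 191 CPM in CA3 and 255, 284, 301 and 197 CPM in the DG. CA1 stood below both other regions without overlap in HCl, TE and fixed frozen sections, and overlapped with them in paraffin. The log2 fold change of CA1 was -1.81 ± 0.19 with an edgeR adjusted p of 4.33e-18 against the DG and -1.503 ± 0.20 with an edgeR adjusted p of 6.87e-12 against CA3, whereas CA3 over the DG was -0.30 ± 0.17 and was not called. Nrp1, the other neuropilin, differed by -0.56 ± 0.18 with an edgeR adjusted p of 0.0381 between CA1 and CA3, a call that held in 8 of the 17 alternatives, and was lost without the fixed frozen CA1, fixed frozen CA3, HCl CA1, HCl CA3, TE CA3, TE DG or paraffin CA1 library (-0.62 to -0.49) and with no filter on low counts (-0.58) and without all paraffin libraries (-0.52).

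The plexins divided by member. Plexin A1 (Plxna1) was lowest in the DG, with 181, 213, 197 and 181 CPM in CA1, 304, 238, 328 and 267 CPM in CA3 and 136, 88.4, 110.4 and 113 CPM in the DG of HCl sections. CA3 was above the DG without overlap in all 4 conditions and was called in each, and CA1 was above the DG without overlap in all 4 as well. Over the libraries the log2 fold change over the DG was 1.52 ± 0.19 with an edgeR adjusted p of 8.81e-14 in CA3 and 1.10 ± 0.19 with an edgeR adjusted p of 4.46e-07 in CA1. Plexin A4 (Plxna4), the most abundant plexin, went the other way, with 512, 564, 453 and 409 CPM in CA1, 578, 569.7, 535 and 503 CPM in CA3 and 968, 847, 764 and 1017 CPM in the DG of HCl sections. The DG was above both without overlap in those sections. CA1 over DG gave -0.67 ± 0.17 with an edgeR adjusted p of 0.0014 over the libraries and was called in 2 of the 4 conditions. CA3 over DG gave -0.49 ± 0.17 with an edgeR adjusted p of 0.0405, a call that held in 9 of the 17 alternatives. Plxnb3 and Plxnd1 had the highest fitted log2 fold changes of CA1 over the DG, at 1.71 ± 0.40 and 2.64 ± 0.68, but were sparse. In HCl sections Plxnd1 was at 5.47, 22.9, 19.6 and 23.6 CPM in CA1 and 0, 1.55, 2.54 and 0 CPM in the DG, with few UMIs in either. Its call over the libraries held in 14 of the 16 alternatives, and was lost without the HCl CA1 (2.09) or HCl DG (1.83) library. That of Plxnb3 held in 15 of the 17 alternatives, and was lost without the HCl CA1 (1.16) or HCl DG (1.17) library. Plxna3 was lower in CA1 than in the DG (-1.01 ± 0.34), a call that held in 7 of the 17 alternatives, and was lost without the fixed frozen CA1, HCl CA3, HCl DG, TE CA1, TE CA3, TE DG or paraffin DG library (-1.18 to -0.78) and with DESeq2 (-1.03) and with no filter on low counts (-1.005) and without all paraffin libraries (-0.96).

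The Eph receptors were the most abundant family, and of 12 tested over the libraries 4 were called higher in CA3 than in the DG and 2 lower, beside 3.88% and 4.3% of all genes. The calls of Epha5, Epha10 and Ephb6 among these 6 were lost in 5 to 7 of the 17 alternatives. That of Ephb1 (0.65 ± 0.18) held in 14, and was lost without the HCl DG, TE CA3 or TE DG library (0.60 to 0.62). Only that of Epha7 held in all 17. Of the 12 tested, 2 were called higher in CA1 than in the DG, beside 4.64% of all genes, and 2 lower in CA1 than in CA3, beside 2.61%. Epha3 was highest in CA3 outside paraffin sections, with 54.7, 47.5, 43.7 and 7.86 CPM in CA1, 177, 124, 146 and 152 CPM in CA3 and 111, 58.9, 57.1 and 71.2 CPM in the DG of HCl sections. CA3 was above both other regions without overlap in HCl and TE sections, and CA3 over DG gave 0.96 ± 0.20 with an edgeR adjusted p of 8.07e-05, which held in 16 of the 17 alternatives, and was lost without the HCl CA3 (0.69) library. Ephb1 was also highest in CA3, with 169, 97.9, 139 and 205 CPM in CA1, 305, 264, 272 and 324 CPM in CA3 and 191, 149.9, 168 and 180.0 CPM in the DG of TE sections. Its CA1 and DG values overlapped while CA3 stood apart, and CA1 over CA3 gave -0.90 ± 0.18 with an edgeR adjusted p of 5.4e-05. Epha7 was lower in CA3 than in the DG, with 622, 599.7, 548 and 473 CPM against 1064, 1056, 914 and 1130.4 CPM in HCl sections and 570.3, 339, 446 and 473 CPM against 872, 726, 841 and 936 CPM in fixed frozen sections. These did not overlap, and the log2 fold change of CA3 over the DG was -0.70 ± 0.16 with an edgeR adjusted p of 0.000555. Ephb6, which lacks kinase activity, was higher than in the DG in CA1 (0.85 ± 0.23) and in CA3 (0.77 ± 0.22). The first held in 15 of the 17 alternatives, and was lost without the TE CA1 (0.77) or TE DG (0.73) library. The second held in 12 of the 17 alternatives, and was lost without the HCl CA3 (0.51), HCl DG (0.82), TE CA3 (0.69) or TE DG (0.63) library and with DESeq2 (0.72). The log2 fold change of CA3 over the DG was 0.50 ± 0.17 for Epha5 and -1.005 ± 0.30 for Epha10, and that of CA1 over the DG was 1.29 ± 0.35 for Ephb3. Epha5 held in 10 of the 17 alternatives, and was lost without the fixed frozen CA3, fixed frozen DG, HCl CA3, HCl DG, TE CA3, TE DG or paraffin CA3 library (0.44 to 0.51). Epha10 held in 12 of the 17 alternatives, and was lost without the fixed frozen DG (-0.92), HCl CA3 (-0.95), HCl DG (-0.91) or TE CA3 (-0.84) library and with DESeq2 (-0.97). Ephb3 held in 15 of the 17 alternatives, and was lost without the TE CA1 (1.24) or TE DG (1.11) library. Epha4, the most abundant member of all, was not called for any pair over the libraries, with log2 fold changes for CA1 over DG, CA3 over DG and CA1 over CA3 of -0.14 ± 0.16, 0.35 ± 0.16 and -0.49 ± 0.16. In HCl sections alone it was lower in CA1 than in CA3 (-0.85 ± 0.16 with an edgeR adjusted p of 0.000511), at 906, 1226, 954 and 629 CPM against 1703, 1663, 1818 and 1349.8 CPM, and the call was kept in 8 of 8 fits with 1 replicate left out but not in replicates thinned to one total.

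Promoter sequences of a ligand, a co-receptor, a Robo and a semaphorin with at least 1 region call over the libraries that held under each alternative are given to show the DNA upstream of their start sites. They are RefSeq sequences of GRCm38.p6, the build of the counts, cut to the bases that lie upstream of the start and in no annotated exon. Capitals mark the GC box, written GGGCGG on either strand. Slit2 is at chr5:47982905-47983137 on the plus strand, Nrp2 at chr1:62703067-62703284 on the plus strand, Robo3 at chr9:37433247-37433425 on the minus strand and Sema6d at chr2:124089719-124089968 on the plus strand.
Slit2: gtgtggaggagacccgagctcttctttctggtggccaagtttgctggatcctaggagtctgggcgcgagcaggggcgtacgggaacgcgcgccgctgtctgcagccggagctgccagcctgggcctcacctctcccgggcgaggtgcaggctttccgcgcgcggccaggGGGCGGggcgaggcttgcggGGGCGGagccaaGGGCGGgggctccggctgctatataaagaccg
Nrp2: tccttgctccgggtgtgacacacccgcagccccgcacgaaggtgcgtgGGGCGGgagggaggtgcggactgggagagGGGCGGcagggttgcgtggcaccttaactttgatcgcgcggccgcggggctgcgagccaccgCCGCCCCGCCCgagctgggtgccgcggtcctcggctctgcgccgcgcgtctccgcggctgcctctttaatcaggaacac
Robo3: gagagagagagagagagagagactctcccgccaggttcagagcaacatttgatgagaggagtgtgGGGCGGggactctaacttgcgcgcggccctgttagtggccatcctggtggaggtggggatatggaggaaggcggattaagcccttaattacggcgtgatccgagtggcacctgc
Sema6d: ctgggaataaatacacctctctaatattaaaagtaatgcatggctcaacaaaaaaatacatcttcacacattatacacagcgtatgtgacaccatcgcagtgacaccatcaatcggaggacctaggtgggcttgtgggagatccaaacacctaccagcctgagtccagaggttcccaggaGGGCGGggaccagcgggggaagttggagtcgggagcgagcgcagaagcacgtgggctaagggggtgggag
Slit2 held 3 GC boxes, Nrp2 4, and Robo3 and Sema6d 1 each. An E-box, written CANNTG, was found at 2 places in Robo3, 1 in Sema6d and none in Slit2 or Nrp2, and the letters TATAAA were found in Slit2 alone of the 4. Both strands were searched, and no base of a GC box lay in another of these motifs. Windows of 250 bases upstream of the start held a GC box in 32.7% of 32851 promoters of all genes, an E-box in 66.2% and TATAAA in 12.4%. Of 76 such windows of 60 members, 69.7%, 48.7% and 2.63% did. These are matches of letters in a window and say nothing of binding.

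Within each condition the 3 regions were compared on 8 replicates per pair. In HCl sections CA1 was higher than the DG for 7 of 62 members tested and lower for 11 (8.61% and 8.35% of all genes). CA3 was higher than the DG for 13 of 63 and lower for 7 (4.46% and 4.53%). CA1 was higher than CA3 for 5 of 63 and lower for 14 (4.07% and 5.06%). The CA3 and DG counts there fell to 13 in all without CA3 replicate 1. In TE sections the counts were 6 and 6 of 61 for CA1 against the DG (5.15% and 4.99% of all genes). They were 9 and 5 of 60 for CA3 against the DG (4.35% and 3.56%) and 2 and 11 of 61 for CA1 against CA3 (1.99% and 2.41%). Replicates with the same number deviated together, with a correlation over 0.1 in each of 4 pairs, in TE sections and, for CA3 with the DG, in HCl sections. With the number as a block, the members called in TE sections became 10 and 11 for CA1 against the DG and 15 and 8 for CA3 against the DG, while the share of all genes called in either direction rose from 10.1% to 16.1% and from 7.91% to 13.5%. In HCl sections the members called for CA3 against the DG became 18 and 10, and the share of all genes rose from 8.99% to 17.3%. In fixed frozen sections they were 4 and 8 of 44 (3.36% and 4.78%), 2 and 3 of 40 (4.29% and 4.98%), and 2 and 6 of 40 (3.34% and 3.86%). The first fell from 12 to between 5 and 7 without CA1 replicate 2, 3 or 4 or DG replicate 2 or 3. In paraffin sections no member was higher in CA1 than in the DG and 4 of 39 were lower (0.87% and 2.42%). There 2 of 42 were higher and none lower in CA3 than in the DG (1.93% and 1.28%). None was higher and 2 of 37 were lower in CA1 than in CA3 (0.64% and 1.72%). The count of CA3 against the DG in paraffin fell from 2 to 1 without DG replicate 1, 2, 3 or 4, and that of CA1 against CA3 without CA1 replicate 2.

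**Figure D3:**
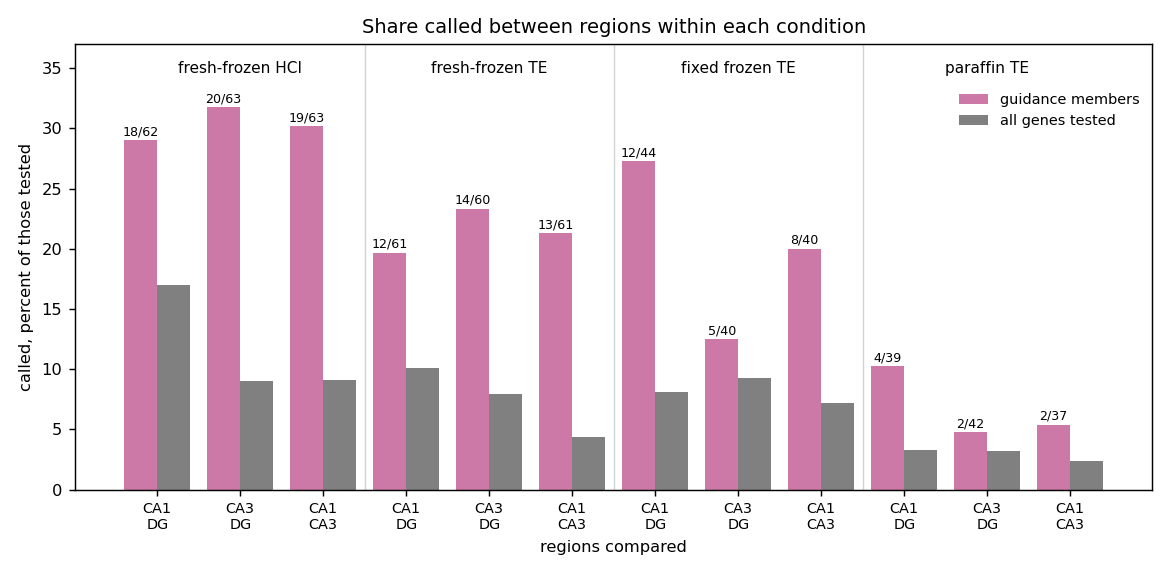
Share (%) of members and of all genes tested that were called in each comparison of regions within a condition (12 comparisons, 8 replicates each). In HCl sections 18 of 62 members were called between CA1 and the DG, and in paraffin sections 4 of 39.

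No member was called in opposite directions for a pair in different conditions. Of the 22 members called between CA1 and the DG over the libraries, 17 could be tested in all 4 conditions, and 14 of those had the same sign in all 4. For CA3 against the DG these counts were 20, 18 and 16, and for CA1 against CA3 13, 12 and 10. The libraries sum the same replicates, so members called over them were picked partly for this agreement. The counts are no separate test of it, and the same counts over all genes are not given. Ntng1, Sema5a and Slit2 were called between CA1 and the DG in all 4 conditions, Plxna1 between CA3 and the DG, and Slit2 and Unc5c between CA1 and CA3. In 57 of the 70 members the 3 region means differed from each other in each condition, and their order was the same in all 4 conditions for 9 of these, in 3 conditions for 15, in 2 for 24 and in 1 for 9. The other 13 had tied means in a condition. Slit2, Unc5c, Sema5b, Robo1 and Ephb1 kept CA3 over DG over CA1, while Ntng1 and Sema5a kept DG over CA3 over CA1.

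Oligodendrocyte markers moved with the same pair of regions as several members. Summed over 9 markers, with none at 0, they were at 13952 CPM in CA1, 10072 in CA3 and 4434 in the DG of HCl sections, and at 19751, 15000 and 12125 CPM in paraffin sections. The replicates ranged from 10542 to 20738 CPM in HCl CA1 and from 3721 to 6034 CPM in HCl DG. Between CA1 and the DG of HCl sections 7 members were called in the direction of these markers, among them Plxnb3, Sema6a, Unc5b and Efnb3. Another 11 were called in the other direction, beside 8.61% and 8.35% of all genes. The part of oligodendrocyte RNA in the values of the members was not tested. Plxnb3, for example, was at 25.99, 22.9, 37.96 and 15.7 CPM in HCl CA1 and 2.84, 3.10, 3.81 and 8.37 CPM in HCl DG.

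Whether a region difference depended on the histological condition was tested with 6 interaction terms over the 48 replicates. Only Efnb3, a transmembrane ephrin, passed, with F = 5.78 and an edgeR adjusted p of 0.00159, beside 2.69% of all genes tested, while 16 members had an unadjusted p under 0.05. In HCl sections Efnb3 was at 82.1, 67.2, 116 and 78.6 CPM in CA1, 37.5, 49.3, 35.8 and 25.98 CPM in CA3 and 36.9, 35.7, 31.7 and 20.9 CPM in the DG. CA1 stood above both without overlap there, and in TE sections the regions overlapped, with 29.9, 37.7, 35.1 and 51.3 CPM in CA1, 26.5, 51.3, 33.2 and 17.6 CPM in CA3 and 34.56, 51.1, 45.3 and 13.6 CPM in the DG. The log2 fold change of CA1 over the DG was 1.44 ± 0.26 with an edgeR adjusted p of 7.22e-05 in HCl sections, -0.03 ± 0.28 with an edgeR adjusted p of 0.97 in TE sections and -0.86 ± 0.48 with an edgeR adjusted p of 0.429 in paraffin sections. With each of 24 replicates left out in turn, the count of members that passed was between 1 and 3.

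Of 48 other genes of these pathways, which are co-receptors, adhesion partners and intracellular effectors, 47 could be tested over the libraries. CA1 was higher than the DG for 4 and lower for 7, CA3 was higher than the DG for 4 and lower for 6, and CA1 was higher than CA3 for 3 and lower for 3, in the comparisons whose shares of all genes are given above. Vav3 and Tiam1, guanine nucleotide exchange factors that act downstream of Eph receptors, were lower in CA1 than in the DG, with log2 fold changes of -3.01 ± 0.26 and -2.15 ± 0.19. Flrt3, an adhesion protein that binds Unc5 receptors, was lower in CA1 than in CA3 (-1.47 ± 0.20). Ngef, an exchange factor known as ephexin that binds Epha4, was higher in CA1 than in CA3 (1.12 ± 0.21). Rasa1, a GTPase-activating protein, was lower in CA1 than in the DG (-1.06 ± 0.18), and Pak1, a kinase activated by Rac, was higher in CA3 than in the DG (0.86 ± 0.17). These 6 genes were called with the same sign in at least 3 conditions.

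The levels of the members also differed between conditions. Each comparison took 24 replicates and adjusted for region. Each region gave 1 library per condition, so that condition and library cannot be told apart. HCl sections were higher than TE sections for 21 of 65 members and lower for 9, beside 16.2% and 14.3% of all genes. The median log2 fold change was 0.21 over the members and 0.10 over all genes, and with scaling factors from well-counted genes 25 members were higher and 5 lower, with medians of 0.34 and 0.22. With the replicates summed per library, 14 members were higher and 3 lower, and the share of all genes called in either direction fell from 30.6% to 15.7%. Slit1 rose (1.61 ± 0.19 with an edgeR adjusted p of 1.82e-09), from 5.74, 19.6, 9.45 and 5.40 CPM in TE CA1 to 39.7, 27.9, 54.1 and 47.1 CPM in HCl CA1. Sema6b (1.54 ± 0.18 with an edgeR adjusted p of 1.38e-09), Plxnb3 (1.76 ± 0.37 with an edgeR adjusted p of 0.000166) and Plxnd1 (1.55 ± 0.43 with an edgeR adjusted p of 0.00395) were also higher with HCl, and so was Ephb4, which had 24 UMIs in all and whose call was kept in 10 of 24 fits with 1 replicate left out. Sema3d, a secreted semaphorin, fell most (-1.15 ± 0.25 with an edgeR adjusted p of 0.000352), followed by Sema5a (-0.68 ± 0.11 with an edgeR adjusted p of 1.23e-06), and Ntn4, Efna5 and Unc5c were lower by less.

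Fixed frozen sections were higher than TE-permeabilized fresh-frozen sections for 1 of 62 members and lower for 29, beside 15.8% and 32.9% of all genes. The median was -0.57 over the members against -0.39 over all genes. These values and the fold changes below used scaling factors from all genes (TMM). That scaling was left out of the limit set on false calls in simulated data. With factors from well-counted genes 5 members were higher and 24 lower, with medians of -0.33 and -0.16. Relative to the median of all genes, Sema3d was at -2.77, Dcc at -2.14, Ntn4 at -1.64, Unc5b at -1.51 and Slit3 at -1.28 on the log2 scale. Sema3e was called higher after fixation (0.96 ± 0.19 with an edgeR adjusted p of 8.31e-06), with the fixed CA1 values given above. Endothelial markers summed to between 206 and 339.7 CPM in the fresh-frozen libraries and between 63.5 and 149 CPM in the fixed and paraffin libraries. Astrocyte markers, of which 7 were summed, had library means of 4822 to 6404 CPM in TE sections and 1685 to 2179 CPM in fixed frozen sections. The part of these cells in the values was not tested.

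Paraffin sections were higher than fixed frozen sections for 9 of 59 members and lower for 4, beside 13.7% and 14.4% of all genes, with medians of 0.12 over the members and 0.05 over all genes. With factors from well-counted genes the counts were 15 and 3, and the medians 0.47 and 0.37. Unc5b rose most (2.96 ± 0.38 with an edgeR adjusted p of 4.41e-12), from 0, 0, 4.12 and 0 CPM in fixed frozen DG to 142, 88.9, 76.2 and 15.6 CPM in paraffin DG. Plxnb3 (2.11 ± 0.51 with an edgeR adjusted p of 0.000363), Sema4b (1.68 ± 0.41 with an edgeR adjusted p of 0.000442), Sema6d and Efnb3 were also higher. The abundant Epha4 fell (-0.99 ± 0.15 with an edgeR adjusted p of 1.52e-09), from 681, 912, 980.4 and 941 CPM in fixed frozen CA1 to 384, 252, 367 and 640.1 CPM in paraffin CA1, without overlap. Sema3e (-1.64 ± 0.26 with an edgeR adjusted p of 2.98e-08), Epha7 (-0.66 ± 0.15 with an edgeR adjusted p of 0.000119) and Unc5a were lower as well. The oligodendrocyte markers given above, at 2675 CPM in fixed frozen DG and 12360 CPM in fixed frozen CA1, were also higher in both regions of paraffin sections, and their part in the rise of Unc5b and Plxnb3 was not tested.

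**Figure D4:**
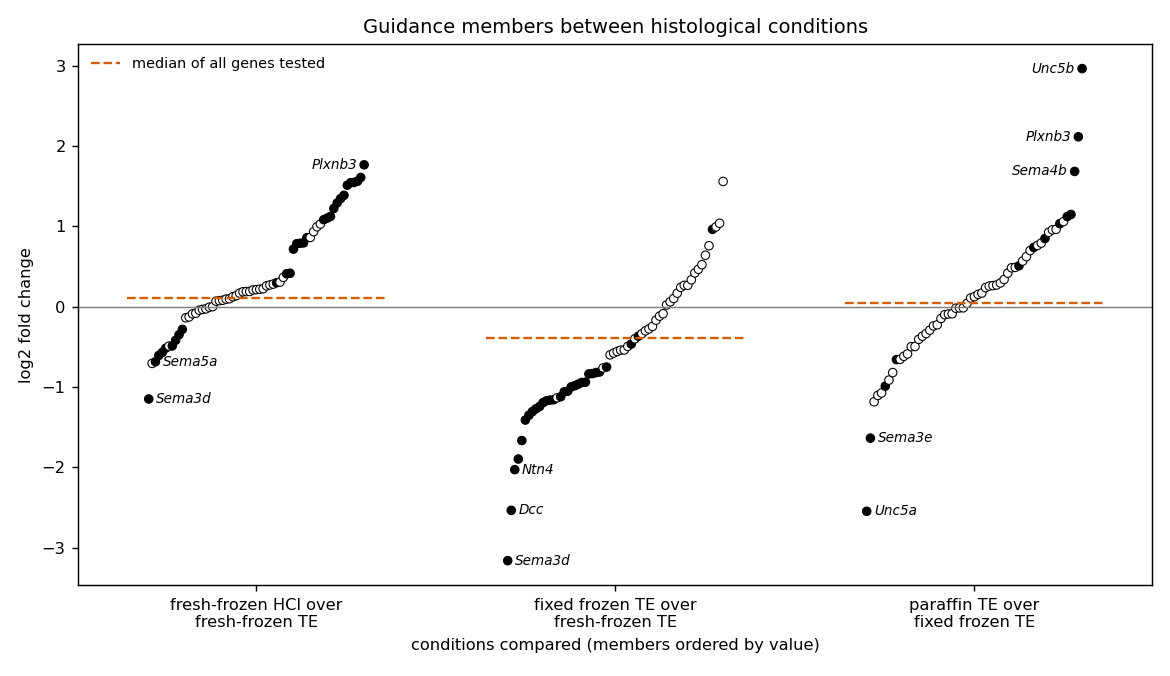
Log2 fold changes of the members in the 3 comparisons of conditions, ordered by size; filled points passed an adjusted p of 0.05 (edgeR) and the dashed line is the median of all genes tested. Most members lie below 0 for fixed frozen over TE-permeabilized fresh-frozen sections, where that median is -0.39.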

How the data were processed

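PIC libraries of 3 hippocampal regions in 4 histological conditions were prepared by the CEL-seq2 protocol, with UMIs of 6 bases. Per the study's methods and the submitters' processing notes, reads were handled with UMI-tools 1.0.0, aligned to GRCm38 with HISAT2 2.1.0 and assigned with featureCounts 1.6.4, and the release of the annotation is not given in the sources used here. The table the authors deposited holds raw UMI counts, as whole numbers, of 32546 genes, and its 48 columns were each matched to a replicate. The series description names CA2 where the sample titles and the paper name CA3, and CA3 was followed. A second table holds barcodes and was not used.

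Here the counts were tested with edgeR 4.0.16 in R 4.3.3 (quasi-likelihood test, TMM factors, a filter of 10 UMIs in sum per gene, Benjamini-Hochberg adjustment over all genes tested) and called at an adjusted p under 0.05. Regions were compared within a condition on 8 replicates and over 12 summed libraries with condition as a covariate. Conditions were compared on 24 replicates, adjusting for region, and the interaction was tested on 48. The SE is the log2 fold change divided by the root of F. Alternatives were DESeq2 1.42.0, edgeR with those size factors, the test without the filter, the replicate number as a block, all replicates thinned to 35932 UMIs, sums per library, each replicate or library left out, and, chosen after seeing the data, TMM factors from well-counted genes (mean of 20 UMIs or more) and no paraffin libraries. The comparison of fixed with fresh-frozen sections was also run on simulated data with known changes in 200 genes. Factors from well-counted genes met a set limit on false calls there. TMM over all genes, which gave the main values of this comparison, was taken to shift it and was left out of that limit. The simulation is thus no check of those main values. The authors called genes with DESeq2 1.20.0.

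Gene positions came from GENCODE M21 (32530 of the identifiers matched) and promoters from RefSeq (GRCm38.p6, windows of 60 members matched). Members named with values were those called with the same sign in at least 2 conditions for a pair or over the libraries, those with an interaction, the 5 largest changes per direction between conditions and the 2 most abundant of each family. Robo2, Slit3, Ntn1, Ntn4, Dcc and Unc5a are named also as relatives not called over the libraries. Members, lists, tests and alternatives were chosen with earlier results of these data known. The replicate numbers are not tied to mice by the labels. Same-numbered replicates deviated together (correlation over 0.1 in each of 4 pairs) for CA3 with DG in HCl sections (0.228 to 0.433) and in TE sections for CA1 with DG (0.219 to 0.314), CA3 with DG (0.213 to 0.312) and CA1 with CA3 (0.18 to 0.338). Totals of 35932 to 1111804 UMIs limit the precision, and a count of 0 allows up to 3 UMIs, for counting error only.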

Additional observations from a re-analysis of the deposited data

Results flagged for a closer look

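Of 342 groups of 4 replicates in which a named member had at least 20 UMIs, 21 (6.14%) held 1 replicate that lay far from the other 3, and chance alone marks about 1 group in 20. Among the Eph receptors, Epha7 was at 989 CPM in replicate 3 of fixed frozen CA1 against 830.2 to 855 CPM in the others, and Ephb3 was at 7.86 CPM in replicate 4 of HCl CA1 against 24.6 to 27.9 CPM. Of the Robos and Slits, Robo2 was at 187 CPM in replicate 4 of HCl CA3 and Slit1 at 10.3 CPM in replicate 1 of TE CA3, both low. Efnb2 was low in replicate 1 of HCl CA3 (7.505 CPM) and in replicate 2 of TE CA1 (42.2 CPM). Among netrins and their receptors, Ntn4 was high in replicate 1 of HCl CA3 (12.9 CPM) and low in replicate 1 of TE DG (14.2 CPM), Unc5b was low in replicate 4 of HCl DG (25.1 CPM), and Unc5d was high in replicate 1 of HCl CA1 (58.8 CPM).

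Nrp1 was marked in 3 groups, at 86.4 CPM in replicate 4 of HCl CA1, where the others were at 213 to 225 CPM, at 203 CPM in replicate 4 of fixed frozen CA1 and at 153 CPM in replicate 1 of fixed frozen CA3. Of the plexins, Plxna3 was at 20.9 CPM in replicate 4 of HCl DG, and Plxna4 at 255 CPM in replicate 1 of fixed frozen CA3 and at 264 CPM in replicate 1 of paraffin DG, all low. Of the semaphorins, Sema3e was at 92.1 CPM in replicate 2 of HCl CA3, Sema4d at 51.2 CPM in replicate 2 of TE CA1 and Sema5a at 373 CPM in replicate 1 of fixed frozen DG, all low, and Sema6c was at 7.497 CPM in replicate 2 of HCl CA3, also low. Sema4d was high in replicate 2 of fixed frozen CA1, at 166 CPM against 59.7 to 73.8 CPM. The region effect of Efnb3 differed among the conditions by the interaction test (F = 5.78 with an edgeR adjusted p of 0.00159), with CA1 above the DG in HCl sections.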

How the results depend on the processing

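With all replicates thinned to 35932 UMIs, the counts for CA1 with DG, CA3 with DG and CA1 with CA3 were 2, 3 and 4 with HCl, 3, 2 and 1 with TE, 3, 3 and 2 after fixation and 1, 1 and 1 in paraffin, those between conditions were 8, 13 and 8, and that of the interaction was 0. The genes called fell with them, for CA1 with DG in HCl sections from 2526 to 246. Thinning also turned the sign of 3 values that then lost their call, which were Ntng1 between CA1 and CA3 in HCl sections (0.0938), Sema6d between CA1 and DG in TE sections (0.0033) and Plxna4 between fixed and fresh-frozen sections (0.0255). DESeq2 called 6 members for CA1 with DG and 5 for CA1 with CA3 after fixation, 1, 1 and 0 in paraffin and 4 in the interaction test. With the replicate number as a block the counts were 21 and 23 for CA1 with DG and CA3 with DG in TE sections and 5 for the interaction, and of 191 named values 190 kept their call. With no filter on low counts, 1 member was called for CA3 with DG in paraffin sections and 2 in the interaction test. DESeq2 size factors and TMM from well-counted genes each gave 2 in the interaction test, and sums per library gave 17 between HCl and TE sections. In the other 8 comparisons of regions the correlation did not pass 0.1 in each of 4 pairs. Their same-numbered replicates still had mean correlations of 0.049 to 0.172. The means for other numbers, -0.057 to -0.015, are no separate contrast. The values were deviations from the mean of 4 replicates, which forces the mean for other numbers to the opposite sign. The block moved no count there by more than 1.5 times.

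With 1 replicate left out in turn, the counts ranged from 16 to 20, 13 to 21 and 14 to 19 with HCl and from 12 to 14, 11 to 17 and 11 to 12 with TE. After fixation they ranged from 5 to 10, 4 to 6 and 6 to 10, and in paraffin from 3 to 4, 1 to 3 and 1 to 3. Between conditions they ranged from 26 to 31, 30 to 34 and 12 to 15, and in the interaction test from 1 to 3. With 1 library left out they ranged from 16 to 23 for CA1 with DG, 9 to 24 for CA3 with DG and 9 to 14 for CA1 with CA3. DESeq2 gave no adjusted p for 8 named values. Of the rest, 207 of 238 kept their call with DESeq2, 242 of 246 with its size factors, 228 of 246 with no filter, 47 of 64 with sums per library, 51 of 164 with thinned replicates and 2902 of 3208 with a replicate or library left out. The causes of these losses were not tested.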

Other observations

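Markers of other cells were also compared over the libraries. Of 7 astrocyte markers, 3 were lower in CA1 and 3 in CA3 than in the DG, with median log2 fold changes of -0.40 and -0.33, and of 7 interneuron markers 3 were higher in CA1 than in the DG. Of 6 microglial and 5 endothelial markers none passed the edgeR test for any pair. Of 4 CA2 markers, 1 was higher and 2 were lower in CA1 than in the DG, 2 were lower in CA3 than in the DG, and none differed between CA1 and CA3. The antisense RNAs Plxna4os1 and Plxna4os2, which lie at the gene of the abundant plexin A4, had 10 and 91 UMIs in all replicates together, and were not compared between regions.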
